A study of Mus musculus with 9 samples.

Results

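Camp, Ltf, Ngp, Lcn2, S100a8, S100a9, Mmp8, Mmp9, Chi3l3 and Cd177 are genes of the late granules and the maturation of neutrophils. They were found by the gene name that the array files give to each probe, with control spots left out and 1 probe taken per gene, the one with the highest mean over the 9 arrays. All 10 had a probe, out of 36413 genes or other named targets on the array, and all 10 passed the filter on dim probes that left 23020 genes for testing. Each of the 10 probes was flagged as well above background on all 9 arrays and none as saturated. For control replicate 2 these flags come from a scanner file that matched its column poorly, as described below.

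Neutrophils form their granules in steps as they mature. The promyelocyte makes primary granules with myeloperoxidase and serine proteases, the myelocyte and metamyelocyte then make secondary granules with lactoferrin, cathelicidin and lipocalin, and still later cells make tertiary granules with gelatinase. The transcription factor C/EBP-epsilon is needed for most of the late set, so these RNAs are widely used to tell how far granulocytic maturation has gone.

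The cells were LSK cells, the fraction of mouse bone marrow that lacks lineage markers and carries Sca1 and cKit, which holds blood stem cells and early progenitors. Drosha-deleted cells came from Drosha fl/fl Gt(ROSA)26Sor CreERT2 mice, Dicer-deleted cells from Dicer fl/fl Gt(ROSA)26Sor CreERT2 mice, and control cells from Gt(ROSA)26Sor CreERT2 mice without a floxed allele in their label, with 3 arrays per group and all mice female. Every group, controls included, therefore carried the tamoxifen-activated Cre at the ubiquitously active Rosa26 locus and spent 72 h in culture with 4OH-tamoxifen at 250 nM. The medium held stem cell factor at 50 ng/mL, 10 ng/mL each of the interleukins IL-6 and IL-3 and 10% serum, with 50000 cells in 50 µL per well. No age is given in the labels. Drosha and Dicer act in sequence to make microRNAs, so each deletion set against control asks what follows its loss, and the deletions set against each other ask where the enzymes differ. Whether the 3 samples of a group are from different animals is not given in the labels, so p-values measure only the spread between these samples, which may be technical. Precision is limited by how few arrays there are.

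Levels are the authors' log2 intensities, on which 1 unit is a doubling of signal. Drosha, listed on the array as Rnasen, differed by -2.91 between Drosha-deleted and control cells (limma adjusted p = 0.000153), and Dicer1 differed by -1.24 between Dicer-deleted and control cells (limma adjusted p = 0.118). Of 10 LSK markers 9 were tested, and Kit and Ly6a, which encode cKit and Sca1, were well above background on all 9 arrays. Markers of maturing lineages were measured too, with all 14 monocyte or macrophage markers that had a probe, all 7 eosinophil markers and all 7 mast cell or basophil markers passing the filter, while among lymphoid markers Cd79a, Vpreb1 and Cd3e passed and Ebf1, Pax5, Cd3g, Cd8a and Trat1 did not. The control columns did not stand together. The bright corner control spots had medians of 13.7 and 13.9 in the columns of control replicates 2 and 3, against 15.4 to 15.6 in the other 7. The columns of control replicates 2 and 3 deviated from the mean of the other 7 in a similar way, at r = 0.86 over 23020 genes. The same mean was subtracted from both columns, and 6 of those 7 arrays are of the deletion groups. A shared difference of control from deleted cells would therefore raise this r too. Whether replicates 2 and 3 or replicate 1 are the unusual control columns was not tested. The scanner file given for control replicate 2 correlated with its own column at r = 0.77, against at least 0.974 for the others. Differences of the named genes from control are therefore also given, as values with no test, against control replicate 1 alone. They were -3.02 for Drosha in Drosha-deleted cells and -0.87 for Dicer1 in Dicer-deleted cells. Control replicate 1 was the highest of the 9 arrays for the members, with a mean deviation of 0.85. Differences from it alone therefore lean negative, by that choice, for the members and for genes that follow them.

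The secondary granule genes were strongly expressed in every group but differed more between arrays of the same group than between groups. Camp encodes the cathelicidin antimicrobial peptide. It read 15.61, 15.76 and 14.93 on the Drosha-deleted arrays, 15.15, 13.31 and 15.69 on the Dicer-deleted arrays, and 15.48, 14.50 and 15.33 on the control arrays. Dicer-deleted replicate 2 was the lowest of the 9 arrays, and the groups overlapped. A second probe of Camp, which overlaps the first, followed it at r = 0.99 over the 9 arrays.

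Ltf encodes lactoferrin, which binds iron and so keeps it from bacteria. Its levels were 15.49, 15.06 and 14.06 in Drosha-deleted cells, 14.38, 12.73 and 15.51 in Dicer-deleted cells, and 15.53, 12.71 and 13.56 in control cells. The extremes of all 9 arrays both lay among the controls, 7.06-fold apart. Ngp, the neutrophilic granule protein, read 14.97, 15.05 and 13.60 in Drosha-deleted cells, 14.53, 12.82 and 15.03 in Dicer-deleted cells, and 14.87, 12.75 and 13.32 in control cells, so that each group held at least 1 array near 15 and 1 array under 14.

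Lcn2 encodes lipocalin 2, which binds the siderophores that bacteria use to gather iron. It read 15.18, 14.89 and 14.45 in Drosha-deleted cells, 14.26, 13.22 and 15.06 in Dicer-deleted cells, and 15.18, 13.23 and 13.84 in control cells. The Drosha-deleted arrays lay in the upper part of the range, and they lay within the range of the controls. Cd177 encodes a glycoprotein of the neutrophil surface and secondary granules that in humans displays proteinase 3. It read 11.54, 11.45 and 9.65 in Drosha-deleted cells, 10.48, 9.08 and 11.30 in Dicer-deleted cells, and 11.18, 9.30 and 9.75 in control cells, again with high and low arrays in every group.

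S100a8 and S100a9 encode the subunits of calprotectin, a calcium-binding protein that fills the cytosol of neutrophils and withholds zinc and manganese from microbes. S100a8 read 17.95, 17.90 and 17.27 in Drosha-deleted cells, 17.22, 15.76 and 17.79 in Dicer-deleted cells, and 17.89, 16.18 and 16.73 in control cells. S100a9 read 18.55, 18.60 and 18.22 in Drosha-deleted cells, 18.25, 17.14 and 18.54 in Dicer-deleted cells, and 18.54, 17.66 and 18.04 in control cells. Both were highest on a Drosha-deleted array and lowest on Dicer-deleted replicate 2, and the groups overlapped. S100a9 had the narrowest range of the 10 genes, 2.74-fold over the 9 arrays.

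Mmp8 departed most from that order of arrays, with a rank correlation of 0.62 with the members. Chi3l3 had 0.72, and Mmp9 had 0.82, as did Ngp and S100a8. Mmp8, the neutrophil collagenase, read 10.05, 9.85 and 9.14 in Drosha-deleted cells, 10.699, 8.80 and 11.66 in Dicer-deleted cells, and 11.93, 10.23 and 11.67 in control cells. Every Drosha-deleted array was below every control array, and the Dicer-deleted arrays spanned both. Mmp9, the gelatinase of tertiary granules, read 7.69, 6.89 and 6.42 in Drosha-deleted cells, 6.44, 6.28 and 8.04 in Dicer-deleted cells, and 8.85, 6.91 and 7.24 in control cells, with the groups overlapping.

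Chi3l3, now named Chil3, encodes the chitinase-like lectin Ym1, made by maturing neutrophils and by some macrophages in mice. It read 17.15, 17.60 and 15.72 in Drosha-deleted cells, 15.50, 13.81 and 15.93 in Dicer-deleted cells, and 16.21, 15.53 and 15.15 in control cells. Its range over the 9 arrays, 13.9-fold, was the widest of the 10 genes, with Drosha-deleted replicates 1 and 2 above all other arrays and Dicer-deleted replicate 2 below all of them. Chi3l3 has a near-identical paralog, Chi3l4, whose probe followed it at r = 0.98 over the 9 arrays, so the signal of the pair may be shared and is uncertain for either gene.

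**Figure D1:**
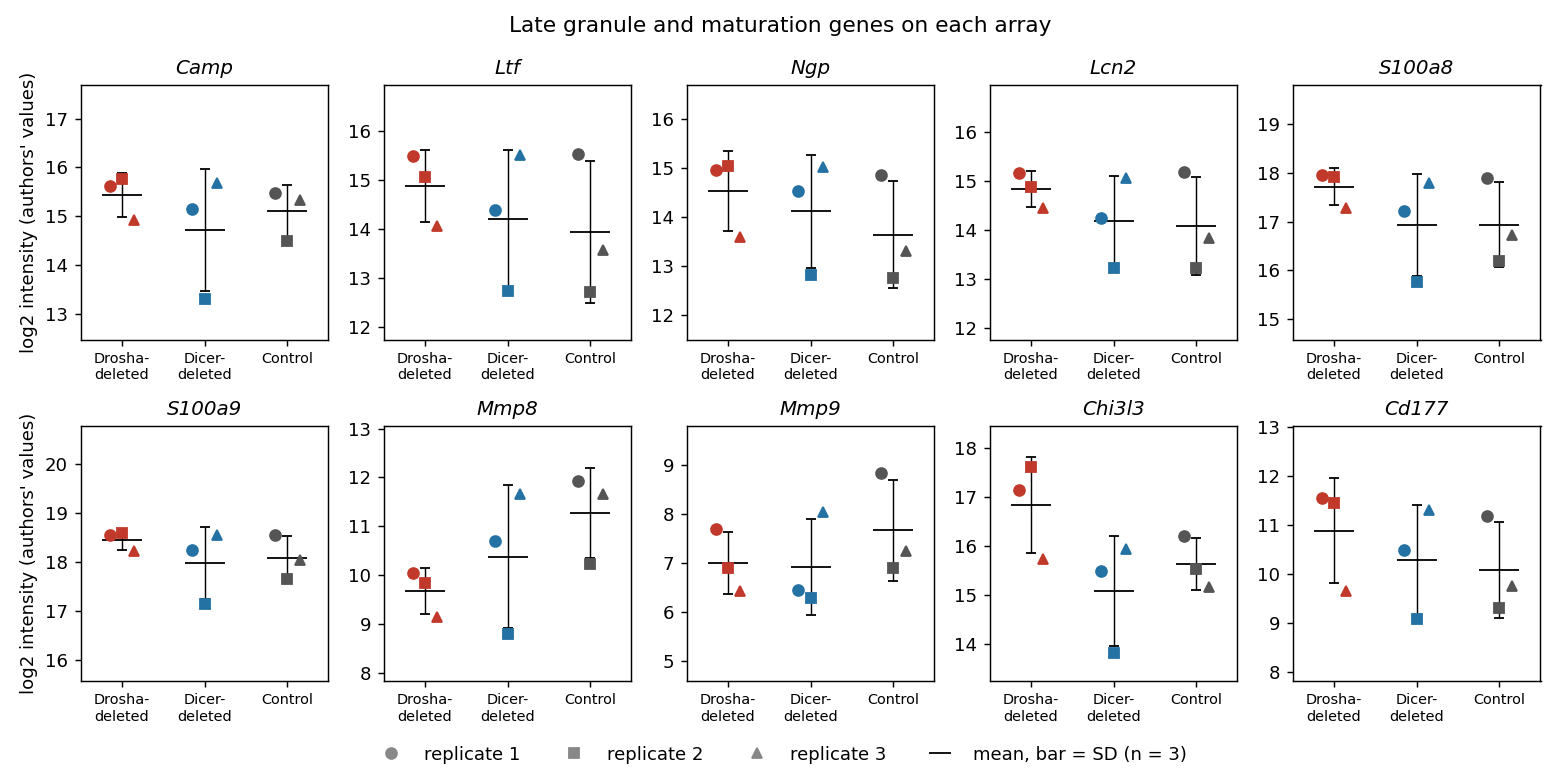
Authors' log2 intensity of each gene (vertical axis, the same span in each panel) on the 9 arrays, by group, with a symbol per replicate number, the mean as a line and the SD (n = 3) as a bar. In most panels each group holds high and low arrays, Dicer-deleted replicate 2 is among the lowest, and Mmp8 is the gene whose Drosha-deleted points all lie below the control points.

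Several of these genes are neighbours in the genome, by the probe positions of the array files on mm9. On chromosome 9, the Camp probe lies at chr9:109749911-109749970, the Ngp probe at chr9:110324266-110324814 and the Ltf probe at chr9:110942873-110942932, so that Camp and Ngp are 574 kb apart and Ngp and Ltf 619 kb apart. Mmp8 is far from them on the same chromosome, at chr9:7568238-7568297. On chromosome 3, S100a8 at chr3:90473778-90473837 and S100a9 at chr3:90496573-90496632 are 22.8 kb apart, and Chi3l3 lies at chr3:105950485-105950544. Lcn2 is at chr2:32240199-32240258, Mmp9 at chr2:164780620-164780679 and Cd177 at chr7:25531261-25535362, and the spans of the Ngp and Cd177 probes are longer than a probe, as for a probe that crosses an exon junction. Which exon or UTR each probe covers was not analysed here.

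The genes moved together from array to array. The mean deviation of the 10 genes from their own means was 0.70, 0.59 and -0.37 on the Drosha-deleted arrays, -0.03, -1.42 and 0.74 on the Dicer-deleted arrays, and 0.85, -0.81 and -0.25 on the control arrays. Control replicate 1 and Dicer-deleted replicate 3 had all 10 genes above their mean, and Dicer-deleted replicate 2 and control replicate 2 had 0 of 10 above it. Dicer-deleted replicate 2 was the lowest array for 8 of the genes, and control replicate 2 for Ltf and Ngp. The highest and lowest arrays for the set, control replicate 1 and Dicer-deleted replicate 2, differed by 2.27 units in the mean level. Since these are bulk samples, fewer cells of a type and less RNA per cell cannot be told apart.

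Over the 45 pairs of members, the median correlation of levels over the 9 arrays was r = 0.83, from 0.17 to 0.99. It was 0.92 for the 28 pairs without Mmp8 and Mmp9, with the tightest pair Ltf and Lcn2. Mmp8 had a median of r = 0.43 with the other 9 genes. Taken as deviations from the mean of each group, the median over the 45 pairs was 0.91, and Mmp8 reached 0.90 with the others. For Mmp9 the median rose likewise, from r = 0.60 to 0.84. Both genes therefore followed the others more closely within groups than over all 9 arrays. In the main fit no group difference of either gene passed the limma threshold. These correlations share the same 9 arrays and their normalisation and are given as a description. Without control replicates 2 and 3, the median over the pairs was r = 0.89 on 7 arrays.

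**Figure D2:**
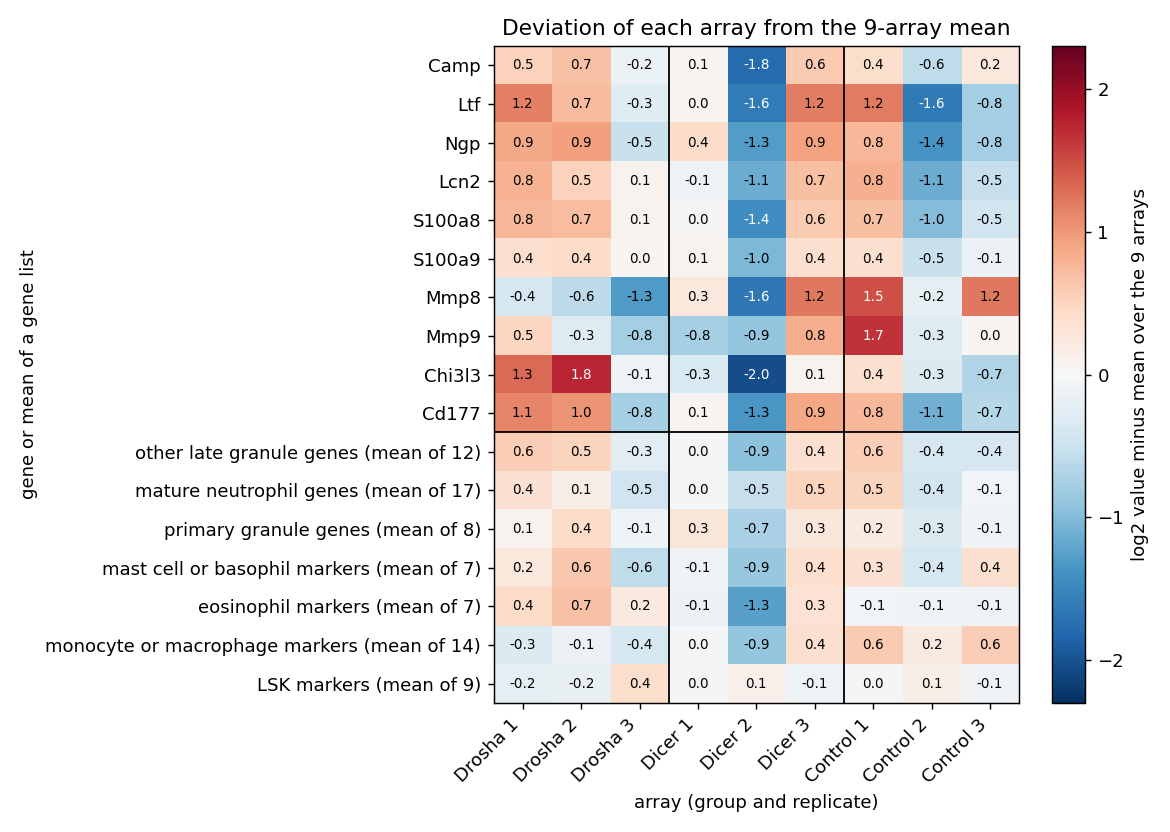
Deviation of each array (columns, by group and replicate) from the mean of the 9 arrays, in log2 units, for the 10 genes and, under the line, for the means of 7 other gene lists. Dicer-deleted replicate 2 and control replicate 2 are low, and Drosha-deleted replicate 1, Dicer-deleted replicate 3 and control replicate 1 high, in most of the upper rows; Mmp8 is low on all Drosha-deleted arrays.

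The spread within groups was large for this set. The pooled within-group SD of the 10 genes had a median of 0.91 units, against 0.23 over all 23020 genes tested. It exceeded the 95th percentile of all genes, 0.55, for 9 of the 10, and S100a9 at 0.51 was the exception. Groups accounted for a median of 18.4% of the variance of the 10 genes, against 40.1% over all genes. The spread does not rest on the control columns. Within the 2 deletion groups alone, the median SD was 0.97 for the 10 genes and 0.18 for all genes, and all 10 exceeded the 95th percentile, 0.50.

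Because the members move together, promoter sequence was read for the 9 genes with a window in RefSeq's GRCm38.p6 set, from 250 bases before the start site to 50 after it; Mmp9 had none in the table. C/EBP factors bind paired half-sites, and the spaced motif TTNNGCAA, searched on both strands and chosen after the windows were seen, was found in 5 of the 9 windows, those of Ltf, Ngp, Lcn2, S100a9 and Mmp8, against 10.8% of all 32851 windows of the same length. The stretches around the matches in these 5 windows are shown, with the motif in capitals. Each sequence is given 5′ to 3′ on the strand of its gene.
Ltf, chr9:111019191-111019250, plus strand, 75 bases before the start: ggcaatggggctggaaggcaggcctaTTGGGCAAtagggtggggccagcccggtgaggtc
Ngp, chr9:110419644-110419703, plus strand, 138 bases before the start: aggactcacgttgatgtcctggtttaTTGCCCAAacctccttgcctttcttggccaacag
Ngp, chr9:110419771-110419807, plus strand, 11 bases before the start: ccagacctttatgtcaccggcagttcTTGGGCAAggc
Lcn2, chr2:32387922-32387981, minus strand, 216 bases before the start: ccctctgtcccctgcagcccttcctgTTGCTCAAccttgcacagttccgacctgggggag
S100a9, chr3:90695924-90695971, minus strand, 236 bases before the start: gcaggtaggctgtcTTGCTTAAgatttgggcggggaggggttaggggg
Mmp8, chr9:7558384-7558428, plus strand, 19 bases before the start: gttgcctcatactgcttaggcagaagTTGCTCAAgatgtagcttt
The motif TATAAA was found in the windows of Cd177, Chi3l3, Mmp8, S100a8 and S100a9, against 13.6% of all windows, and GAGGAA, the core bound by PU.1, in those of Cd177, Lcn2, Ltf, Mmp8 and S100a8, against 28.3%. No match overlapped another. Matches on the opposite strand, as in the first stretch of Ngp and in those of Lcn2, S100a9 and Mmp8, appear as the reverse complement of the motif on the strand shown. A match describes the letters in the window and does not show binding, and the windows of Camp, S100a8, Chi3l3 and Cd177 hold no TTNNGCAA, which says only that these letters are not in that window.

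In Drosha-deleted against control cells, no member passed the threshold of an adjusted p under 0.05 over all 23020 genes (limma), where 0.169% of all genes did. Of the 10 genes 8 had a higher mean in Drosha-deleted cells, and the median difference was 0.76, against -0.0022 over all genes. Chi3l3 had the largest positive difference, 16.83 ± 0.98 in Drosha-deleted cells and 15.63 ± 0.53 in control cells (SD, n = 3 each), a difference of 1.20 or 2.29-fold, with a 95% interval of -0.20 to 2.59 and limma adjusted p = 0.239. Ltf followed at 0.93, Ngp at 0.89, Cd177 at 0.80, S100a8 at 0.77 and Lcn2 at 0.76, with adjusted p-values of 0.381 to 0.480, and S100a9 at 0.38 and Camp at 0.33 were the smallest. All of these intervals crossed 0, and the groups overlapped.

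Mmp8 was the member furthest below control. It averaged 9.68 ± 0.48 in Drosha-deleted cells and 11.28 ± 0.91 in control cells (SD, n = 3 each), a difference of -1.59 with a 95% interval of -3.16 to -0.02, which corresponds to a level 3.02-fold lower in Drosha-deleted cells. Its unadjusted limma p was 0.0474 and its adjusted p 0.181, and 26.9% of all genes had an unadjusted p under 0.05. Mmp8 was the 1 member whose groups did not overlap, where 23.2% of all genes had groups that did not overlap and 10.5% did so with the lower values in Drosha-deleted cells. The sign was negative in all 20 processing settings tried, from -2.25 without control replicates 2 and 3 to -0.85 with normexp-corrected scanner values. The lowest limma adjusted p of Mmp8 was 0.078, and it passed the threshold in 0 of them. Several settings cannot change this difference, such as other filters, the replicate block and leaving out a Dicer-deleted array. Mmp9 differed by -0.66 (limma adjusted p = 0.494).

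The comparisons of Drosha-deleted and Dicer-deleted cells with control share the same 3 control arrays. Without control replicate 1 the median difference was 1.28, without control replicate 2 it was 0.33, and without control replicates 2 and 3, a choice made after seeing the data that leaves 1 control array assumed to vary like the other groups, it was -0.31. In that last setting Chi3l3 stayed higher in Drosha-deleted cells, at 0.62, and Mmp9 stayed lower, at -1.85. There Camp, Ltf, Ngp, Lcn2, S100a8, S100a9 and Cd177 changed sign. The control array left in it is the highest of all arrays for the set, so a lower set mean is built into it. When limma weighted the arrays by their fit, which gave control replicate 1 a weight of 0.147, Ltf, Ngp, Lcn2, S100a8, Chi3l3 and Cd177 passed the threshold as higher in Drosha-deleted cells, with adjusted p-values of 0.00897 to 0.0253, in a fit that called 11642 of all genes.

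In Dicer-deleted against control cells, 0 of 10 members passed the threshold (limma), where 0.0174% of all genes did, and 0 of 10 had an unadjusted p under 0.05, against 21.9% of all genes. The median difference was -0.06, with 4 genes higher and 6 lower in Dicer-deleted cells, and adjusted p-values ran from 0.452 to 0.994. Mmp8 was lowest here too, at 10.39 ± 1.45 in Dicer-deleted cells and 11.28 ± 0.91 in control cells (SD, n = 3 each), a difference of -0.89 with a 95% interval of -2.46 to 0.68. Ngp was the most positive at 0.48, with an interval of -1.10 to 2.06. Against control replicate 1 alone the median was -0.98, with Mmp8 at -1.54, Mmp9 at -1.93, Chi3l3 at -1.13 and Ngp at -0.75. That array is the highest for the set, so the negative direction follows from the choice. Only S100a9, with an interval of -0.91 to 0.70, had its whole interval within 2-fold of no difference. The 9 other intervals allow larger differences in at least 1 direction. No member had groups that did not overlap, against 21.6% of all genes.

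In Drosha-deleted against Dicer-deleted cells, which uses no control array in its means, 0 of 10 members passed the threshold (limma), where 0.0565% of all genes did. Of the 10 genes 9 had the higher mean in Drosha-deleted cells, with a median difference of 0.63 against 0.0034 over all genes. Chi3l3 averaged 16.83 ± 0.98 in Drosha-deleted cells and 15.08 ± 1.12 in Dicer-deleted cells (SD, n = 3 each), a difference of 1.75 with a 95% interval of 0.35 to 3.15, or 3.36-fold. Its unadjusted limma p was 0.0197 and its adjusted p 0.738, 5.66% of all genes had an unadjusted p under 0.05, and its groups overlapped, as those of all 10 genes did, where 15.4% of all genes did not overlap. The paralog Chi3l4 differed by 1.62 (adjusted p = 0.910). Mmp8 was the gene with the lower mean, at -0.70, and the others lay between 0.08 and 0.78. The median difference was 0.0021 without Dicer-deleted replicate 2, the array on which most of the set was lowest.

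A moderated F test over the 3 groups passed 0 of 10 members (limma), where 0.0912% of all genes passed, with adjusted p-values from 0.230 for Chi3l3 to 0.692 for Ltf. Drosha-deleted cells had the highest mean for 8 of the genes and control cells for Mmp8 and Mmp9. No neighbours in these orders differed past the limma threshold. The 95% intervals of the members were 1.60 to 3.76 units wide, against a median of 0.81 over all genes, so that for 9 of the 10 genes a 2-fold difference was smaller than the reach of the interval to either side.

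**Figure D3:**
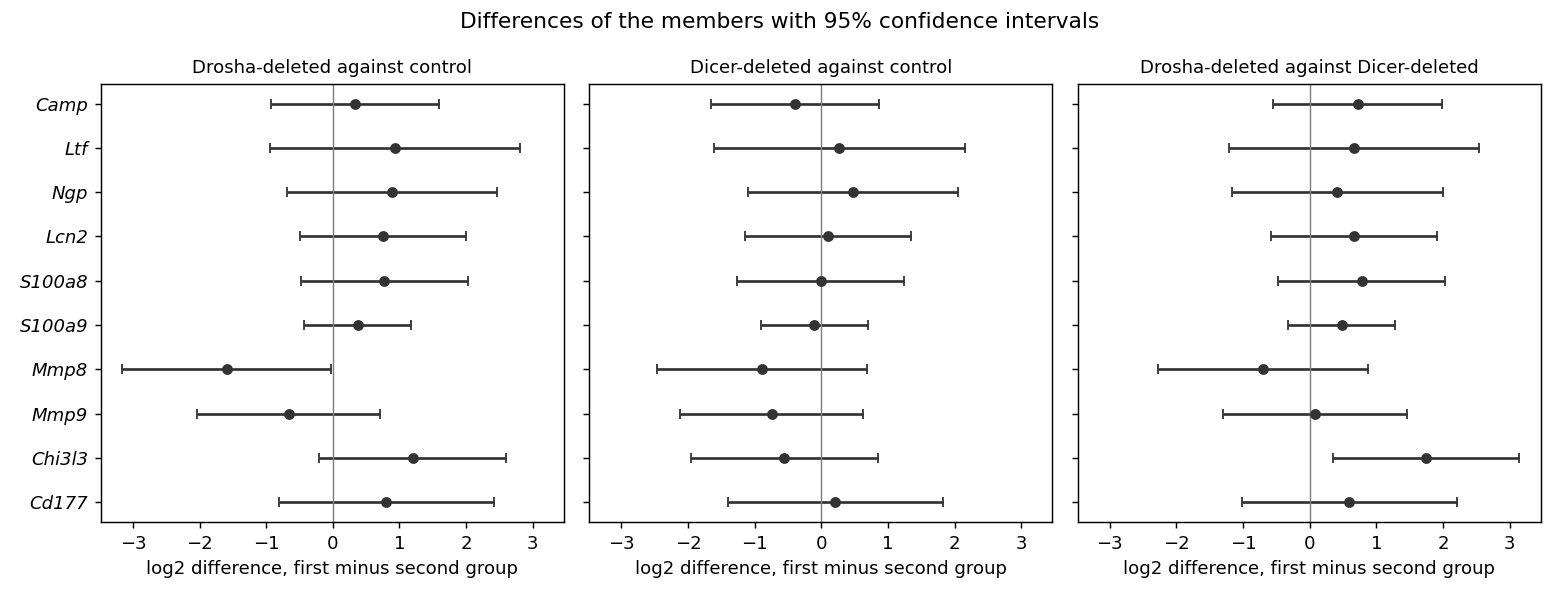
Difference of each gene in log2 units (horizontal axis, first group minus second), with 95% confidence intervals from limma, in the 3 comparisons. The interval of Mmp8 ends just below 0 in Drosha-deleted against control cells and that of Chi3l3 lies above 0 in Drosha-deleted against Dicer-deleted cells; no difference passed the threshold after adjustment.

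The members were also read against each other on the same array, as a description chosen after the values were seen. For each array, the mean deviation of the other 9 genes was subtracted from the deviation of the gene. For Mmp8 the result was -1.22, -1.32 and -1.04 on the Drosha-deleted arrays, 0.31, -0.25 and 0.52 on the Dicer-deleted arrays, and 0.70, 0.66 and 1.63 on the control arrays. These values of the 3 groups did not overlap, with Drosha-deleted cells lowest and control cells highest. For Chi3l3 it was 0.67, 1.30 and 0.28 on the Drosha-deleted arrays, -0.36, -0.69 and -0.73 on the Dicer-deleted arrays, and -0.54, 0.56 and -0.49 on the control arrays, so that the deletion groups were separate and the controls overlapped both. For Mmp9 it was -0.23, -0.99 and -0.45 on the Drosha-deleted arrays, -0.81, 0.56 and 0.12 on the Dicer-deleted arrays, and 0.89, 0.58 and 0.33 on the control arrays. Mmp8 was not alone in this. Of the 10 genes, 3 had groups that did not overlap in Drosha-deleted against control cells (Mmp8 and Mmp9 lower, S100a8 higher), 4 in Dicer-deleted against control cells (Mmp8 lower, Ngp, S100a8 and Cd177 higher) and 2 in Drosha-deleted against Dicer-deleted cells (Mmp8 lower, Chi3l3 higher). Each gene enters the mean that is subtracted from the others, so a low Mmp8 raises the values of the other 9. These counts are therefore not independent of each other. No share over other genes was computed for this measure, and nothing particular to Mmp8 is read from it.

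**Figure D4:**
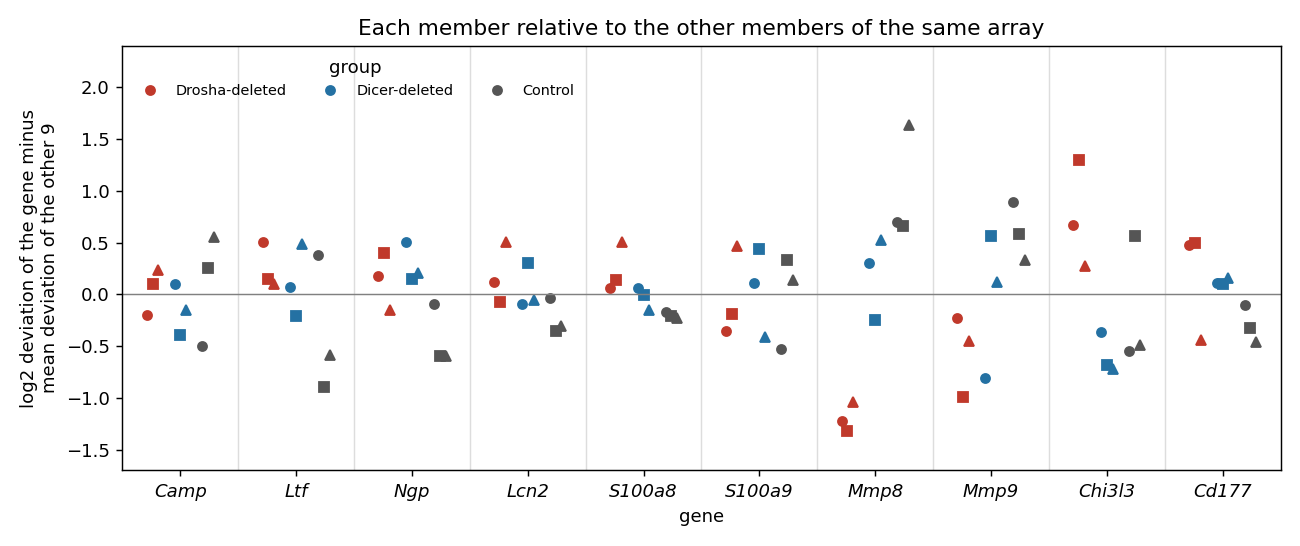
Deviation of each gene from its own mean less the mean deviation of the other 9 genes on the same array (vertical axis, log2 units), with colours for the groups and a symbol for each replicate number (circle 1, square 2, triangle 3). The Drosha-deleted points of Mmp8 lie between -1.32 and -1.04 and its control points between 0.66 and 1.63, and the S100a8 points, in a narrower range of -0.23 to 0.50, also have all 3 control points below the others.

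Markers of other cell types moved with some of these results. Mmp8 correlated at r = 0.94 over the 9 arrays with the mean of the 14 monocyte or macrophage markers, and the other 9 members at 0.23 (Chi3l3) to 0.68 (Mmp9). That mean lay between 8.74 and 8.97 on the Drosha-deleted arrays, 8.22 and 9.49 on the Dicer-deleted arrays, and 9.32 and 9.71 on the control arrays, and so, like Mmp8, was lower on every Drosha-deleted array than on any control array. Of these 14 markers, Cd14, a co-receptor for lipopolysaccharide, passed the threshold as lower in Drosha-deleted cells (-1.26, limma adjusted p = 0.030, and -1.15 against control replicate 1 alone), and 6 had an unadjusted p under 0.05, against 26.9% of all genes. All 14 were well above background on at least 7 arrays. The part of monocytes or macrophages in the Mmp8 difference was not tested.

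Markers of other granulocytes also moved with the members. The mean of the 7 mast cell or basophil markers correlated at r = 0.86 with the mean of the members, each standardised over the 9 arrays, and ran from 10.43 to 11.65 in Drosha-deleted, 10.14 to 11.41 in Dicer-deleted and 10.62 to 11.38 in control cells. The mean of the 7 eosinophil markers correlated at r = 0.82, and Chi3l3 followed that mean at r = 0.91. That mean ran from 9.17 to 9.60 in Drosha-deleted, 7.68 to 9.26 in Dicer-deleted and 8.81 to 8.88 in control cells. Single eosinophil markers varied, with r from -0.26 to 0.81, a median of 0.55 and 2 of 7 above 0.8. Their median difference between Drosha-deleted and control cells was 0.02. Against control replicate 1 alone, Ear1 and Ear2 differed by 2.10 and 2.24 in Drosha-deleted cells. Prg2, Epx, Il5ra, Siglecf and Ccr3 differed by -0.40, -0.45, -0.15, -0.05 and 0.22. The mean of 9 LSK markers went against the members, at r = -0.72, with 7 of the 9 genes negative and Ly6a positive at r = 0.79. Kit, the defining receptor, was highest at 13.06 on Drosha-deleted replicate 3 and 12.88 on Dicer-deleted replicate 2. The mean deviation of the members was -0.37 and -1.42 on these arrays. Control replicate 2, at -0.81, was not one of them. Means of the dendritic (r = 0.69), megakaryocyte (0.16), erythroid (-0.27), T lymphoid (0.25, 1 gene) and B lymphoid (0.07, 2 genes) markers followed less closely. How much each cell type contributed to the level of the members was not tested.

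Means over lists of other late granule and mature neutrophil genes followed the members from array to array, while single genes varied. The mean of 12 tested genes of late granules, out of 15 listed, correlated with the members at r = 0.96. Single genes of this list had r from 0.08 to 0.99, with a median of 0.66, all 12 positive and 5 above 0.8. It was 11.25 to 12.07 in Drosha-deleted, 10.56 to 11.87 in Dicer-deleted and 11.11 to 12.06 in control cells, and 0 of 12 passed the limma threshold in any comparison. The medians of their differences were 0.44 in Drosha-deleted against control, -0.17 in Dicer-deleted against control and 0.30 in Drosha-deleted against Dicer-deleted cells. At an unadjusted limma p under 0.05 were 2, 1 and 1 of these genes, against 26.9%, 21.9% and 5.66% of all genes. The smallest p-values of the list were those of 4 genes. Cyba, a subunit of the oxidase that makes superoxide, differed by 0.36 between Drosha-deleted and Dicer-deleted cells (limma adjusted p = 0.75). Itgam, the alpha chain of the integrin Mac-1, differed by 0.72 between Drosha-deleted and control cells (limma adjusted p = 0.144), and was not in step with the members (r = 0.08). Pglyrp1, which binds bacterial peptidoglycan, differed by 1.10 (limma adjusted p = 0.173), and Orm1, an acute phase protein, by 0.53 (adjusted p = 0.197) in the same comparison. Against control replicate 1 alone these differences were 0.14 for Itgam, 0.37 for Pglyrp1 and 0.54 for Orm1, and the list had a median of -0.10 in cells without Drosha and of -0.63 in cells without Dicer.

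Of 19 genes of mature neutrophils 17 were tested, and Ly6g had no probe under that name. Their mean followed the members at r = 0.93, and 0 passed the limma threshold. Single genes had r from -0.26 to 0.99, with a median of 0.73, 16 of 17 positive and 5 above 0.8. The medians were 0.17 in Drosha-deleted against control, -0.05 in Dicer-deleted against control and 0.09 in Drosha-deleted against Dicer-deleted cells. An unadjusted limma p under 0.05 was found for 3, 1 and 1 of the 17, against 26.9%, 21.9% and 5.66% of all genes. Fpr1 and Fpr2, receptors for formylated bacterial peptides, had lower means in Drosha-deleted than in control cells, with differences of -1.39 (limma adjusted p = 0.069) and -0.90 (adjusted p = 0.178). Fpr1 read 8.05, 7.97 and 7.92 on the Drosha-deleted arrays, 9.08, 8.37 and 8.71 on the Dicer-deleted arrays, and 9.85, 8.85 and 9.42 on the control arrays, so the Drosha-deleted values lay below all others. Both correlated at r = 0.11 with the members, and so did not share their order of arrays. Stfa1, a stefin whose family members are near copies and therefore uncertain, differed by 0.77 (limma adjusted p = 0.131), and Ncf1, a cytosolic subunit of the oxidase, by 0.47 (adjusted p = 0.264). Against control replicate 1 alone, the differences in Drosha-deleted cells were -1.87 for Fpr1, -1.30 for Fpr2, 0.95 for Stfa1 and 0.05 for Ncf1, and the list had a median of -0.37 in cells without Drosha and of -0.46 in cells without Dicer.

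Primary granule genes, made earlier in maturation, varied less. The mean of the 8 followed the members at r = 0.91, with all 8 positive, and their median within-group SD was 0.40 units, against 0.91 for the members. None of the 8 passed the limma threshold. In the 3 comparisons 1, 0 and 1 had an unadjusted limma p under 0.05, against 26.9%, 21.9% and 5.66% of all genes. The list medians were 0.18, -0.11 and 0.18 in Drosha-deleted against control, Dicer-deleted against control and Drosha-deleted against Dicer-deleted cells. Mpo, myeloperoxidase, read 17.88, 18.28 and 18.05 in Drosha-deleted cells, 18.01, 16.96 and 17.97 in Dicer-deleted cells, and 17.97, 17.59 and 17.77 in control cells. Elane, neutrophil elastase, read 15.11, 15.75 and 15.15 in Drosha-deleted cells, 15.78, 13.94 and 15.17 in Dicer-deleted cells, and 15.35, 14.56 and 15.22 in control cells. Dicer-deleted replicate 2 was the lowest array for both. Cst7, cystatin F, had the smallest p of the list, with a difference of 0.82 between Drosha-deleted and control cells (limma adjusted p = 0.114), or 0.73 against control replicate 1 alone.

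Among 13 regulators of granulocytes, 0 passed the limma threshold. An unadjusted limma p under 0.05 was found for 26.9%, 21.9% and 5.66% of all genes and for 0, 1 and 0 of the regulators. Their median differences were -0.05 in Drosha-deleted against control, -0.07 in Dicer-deleted against control and -0.05 in Drosha-deleted against Dicer-deleted cells. Cebpe, which encodes C/EBP-epsilon, followed the members at r = 0.90. It read 14.32, 14.28 and 13.30 in Drosha-deleted cells, 13.88, 12.57 and 13.996 in Dicer-deleted cells, and 13.65, 12.76 and 13.09 in control cells, a difference of 0.80 between Drosha-deleted and control cells (limma adjusted p = 0.253). Gfi1, a repressor needed for neutrophil formation, followed at r = 0.71, and Csf3r, the receptor for G-CSF, at r = 0.32. The Cebpe difference was 0.32 against control replicate 1 alone. Over the list, correlations ran from -0.67 for Myb to 0.90 for Cebpd, 2 genes named here after their values were seen. The mean of the list spanned 0.53 units over the 9 arrays, against 2.27 for the members.

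Receptors and partners of the members' products gave 0 of 9 tested genes past the limma threshold. At an unadjusted limma p under 0.05 were 4, 3 and 0 of the 9, against 26.9%, 21.9% and 5.66% of all genes. The list medians were 0.04, 0.02 and -0.08 in Drosha-deleted against control, Dicer-deleted against control and Drosha-deleted against Dicer-deleted cells. Ly96, which with Tlr4 forms the receptor reported to sense calprotectin, differed by -0.98 between Drosha-deleted and control cells (limma adjusted p = 0.105), and Lrp1, a receptor that takes up lactoferrin, differed by -0.73 (adjusted p = 0.155). Pecam1, a partner of CD177 in humans, differed by 0.44 between Dicer-deleted and control cells (limma adjusted p = 0.218). With control replicate 1 alone, the differences were -0.31 for Ly96, -1.06 for Lrp1 and 0.37 for Pecam1. Itgb2, the beta chain that pairs with Itgam, followed the members at r = 0.98.

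The relatives of the members by family did not follow them. Of 12 other S100 genes 9 were tested, and their mean correlated at r = -0.51 with the members and spanned 0.21 units over the 9 arrays. Between Drosha-deleted and control cells, S100a4 differed by -0.96 (limma adjusted p = 0.111), S100a16 by 1.65 (adjusted p = 0.112) and S100a3 by 0.54 (adjusted p = 0.091). The S100a16 difference rests on the columns of control replicates 2 and 3: it read 13.003, 13.26 and 13.22 on the Drosha-deleted arrays and 12.88, 10.71 and 10.95 on the control arrays. Against control replicate 1 alone it differed by 0.28, S100a4 by -0.53 and S100a3 by 0.68. Of 16 other metalloproteinases and their inhibitors 13 were tested, with a mean at r = 0.06. Mmp12, Mmp13 and Mmp14 had lower means in Drosha-deleted than in control cells, with differences of -1.23, -1.11 and -0.88 (limma adjusted p = 0.109, 0.102 and 0.061), the same sign as Mmp8 and Mmp9. In Dicer-deleted cells Mmp12, Mmp13 and Timp3, an inhibitor of these enzymes, differed from control by -1.703, -1.76 and -1.10 (limma adjusted p = 0.129, 0.118 and 0.147). Against control replicate 1 alone, Mmp12, Mmp13 and Mmp14 differed by -0.97, -0.43 and -1.01 in Drosha-deleted cells, and Mmp12, Mmp13 and Timp3 by -1.44, -1.08 and -0.98 in Dicer-deleted cells. That list then had a median of 0.14 in cells without Drosha and of -0.40 in cells without Dicer. The median differences in Drosha-deleted against control cells were -0.27 for the S100 list and -0.07 for the metalloproteinase list. In both lists 0 genes passed the limma threshold in any of the 3 comparisons. At an unadjusted limma p under 0.05 there were 5, 3 and 1 of 9 S100 genes and 5, 6 and 5 of 13 metalloproteinase genes. These counts are for Drosha-deleted against control, Dicer-deleted against control and Drosha-deleted against Dicer-deleted cells. Of all genes, 26.9%, 21.9% and 5.66% had such a p in the same comparisons.

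Over all 23020 genes, 330 (1.43%) correlated above 0.8 with the mean of the members. The 10 genes with named symbols that were most alike over the 9 arrays were Pram1 (r = 0.995), Dgat2 (0.987), Lrg1 (0.986), Itgb2 (0.979), Itgb2l (0.972), Il1r2 (0.968), Rhou (0.965), Hexa (0.964), Myo1g (0.961) and Mapk13 (0.961). Pram1, a myeloid adaptor protein, read 11.58, 11.27 and 10.56 in Drosha-deleted cells, 10.68, 9.34 and 11.46 in Dicer-deleted cells, and 11.56, 10.08 and 10.54 in control cells, highest on Drosha-deleted replicate 1 and lowest on Dicer-deleted replicate 2.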

How the data were processed

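RNA was measured on 9 one-colour Agilent arrays. Per the file headers, intensity values were extracted with Feature Extraction 10.7.3.1 (protocol GE1_107_Sep09, design 028005, mm9). The authors' deposited log2 values have nearly equal quantiles in all columns and no centring of probes. The submitters' processing notes name limma without a version, and the background step is not given in the sources used here.

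Control spots (3671 of 62976) were left out, spots of a probe were averaged, and a gene, by its name in the files, was represented by the probe with the highest mean. A gene was tested if all arrays of some group had its probe flagged as well above background; the scanner file given for control replicate 2 flags 93.1% of probes so, the others 53.4% to 61.6%. Deposited flags are other values, 0 or 1. The authors' log2 values were fitted with limma 3.58.1 (R 4.3.3), a mean per group over 9 arrays, moderated two-sided tests and Benjamini-Hochberg adjustment over 23020 genes at 0.05. The fit was tested on simulated data, with genes drawn independently and an equal spread on all arrays. The shared movement of the members and the differing control columns were not simulated. The main alternatives were the scanner values (log2 less the 75th percentile of each array), normexp with offset 50, other filters, array weights, slide or replicate blocks, and leaving out arrays. By the scanner files, the array of control replicate 3 was the only one on slide 2, so a slide block equals leaving it out. The slide behind the column of control replicate 2 is uncertain, because its scanner file did not match that column.

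The members and lists were chosen with earlier results of these data known. Beside the members, genes past the threshold or up to 4 per list with the smallest p are named, with Cebpe, Gfi1, Csf3r, Mpo and Elane, and the 10 genes most correlated with the members.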

Additional observations from a re-analysis of the deposited data

How the results depend on the processing

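The count of members past the threshold was 0 in each comparison under 19 of the 20 settings. With array weights it was 6 in Drosha-deleted against control cells, where that fit called 11642 of 23020 genes. With these weights it was 4 in the F test, for which no share over all genes is given here, and 0 in the other comparisons. Mmp8 stayed negative in all 20 settings in both comparisons with control. Several of the settings cannot change its difference, such as other filters, the replicate block and leaving out an array of the group not compared. The wide intervals, the control columns and 3 arrays per group limit every difference; probes were well above background. Replicate numbers did not pair the samples: deviations of same-numbered arrays of different groups correlated at -0.277 to 0.239 and those of other arrays at -0.295 to 0.282. The replicate block left 0 members past the threshold. The 75th-percentile scaling moved the median of all genes to 0.36 in Drosha-deleted and 0.38 in Dicer-deleted against control cells, and normexp to 0.18 in both, so values under those settings are to be read against these shifts.

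The count of all genes past the threshold changed more than that of the members; the cause was not tested. In Drosha-deleted against control cells (39 genes) it was 7 with scanner values, 1 with normexp, 10 with scanner values without control replicate 2, 25 with no filter, 11642 with array weights, 4 with the replicate block, 13 with the slide block and 5 with only the groups compared. In Dicer-deleted against control cells (4 genes) it was 0 with normexp (2037 genes at an unadjusted limma p under 0.05), 2 with no filter, 2 with the strict filter, 10026 with array weights, 0 with the replicate block, 0 with only the groups compared and 21 without control replicates 2 and 3. In Drosha-deleted against Dicer-deleted cells (13 genes) it was 2 with scanner values, 2 with normexp, 5 with scanner values without control replicate 2, 150 with array weights, 5 with the replicate block and 7 with the slide block. Leaving out 1 array gave 4 to 7743, 0 to 7020 and 4 to 16 genes in these 3 comparisons; 7743 and 7020 are without control replicate 1.

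None of the differences that changed sign passed the threshold, in the main setting or the alternative. In Drosha-deleted against control cells, Camp was -0.031 with scanner values without control replicate 2, and Mmp9 was 0.10 with array weights. Without control replicates 2 and 3, chosen after seeing the data, the median was -0.31, with Camp -0.048, Ltf -0.66, Ngp -0.33, Lcn2 -0.34, S100a8 -0.18, S100a9 -0.087 and Cd177 -0.30. In Dicer-deleted against control cells, S100a8 and S100a9 were 0.27 and 0.18 with scanner values and 0.38 and 0.10 with array weights. Ltf and Lcn2 were -0.11 and -0.11 with normexp, and Lcn2 was -0.027 with the slide block. With scanner values without control replicate 2, Ltf was -0.43, Ngp -0.041, Lcn2 -0.42 and Cd177 -0.18. Without control replicates 2 and 3 the median was -0.98, with Ltf -1.33, Ngp -0.75, Lcn2 -1.002 and Cd177 -0.89.

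Leaving out 1 array in turn, the differences in Dicer-deleted against control cells ran from -0.87 to 0.31 for Camp, -0.38 to 1.07 for Ltf, -0.34 to 0.65 for Lcn2, -0.44 to 0.57 for S100a8, -0.39 to 0.31 for S100a9, -0.98 to 0.082 for Chi3l3 and -0.29 to 0.81 for Cd177. In Drosha-deleted against Dicer-deleted cells they ran from -0.075 to 1.32 for Ltf, -0.24 to 0.89 for Ngp, -0.26 to 0.64 for Mmp9 and -0.010 to 1.21 for Cd177.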
